A study of Mus musculus with 24 samples.

Results

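Amino acid transporter solute carriers were read out in mouse liver organoids and in libraries labelled as primary hepatocytes. The genes were chosen by a rule on their symbols, with earlier results of these data known. Every listed symbol made of Slc1a, Slc3a, Slc6a, Slc7a, Slc36a, Slc38a or Slc43a and a number was taken, and pseudogenes were left out. This gave 67 of the 31053 genes of the hepatocyte table, 62 of the 25876 genes of the cholangiocyte table and 51 of the 20729 genes of the Smart-Seq table, and those 51 were listed in every table. Of the 67, 63 were carriers or their heavy chains and 4 were opposite-strand genes named after a carrier (Slc6a19os, Slc7a6os, Slc36a1os and Slc36a3os).

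All cultures came from wild-type BALB/c mice of 6 to 8 weeks. Bulk libraries are labelled as primary hepatocytes (Pri-Hep), which were selected as EpCAM-negative cells, and as Hep-Orgs at P1, P5 and P10, which grew in Matrigel in Hep-Med with dexamethasone and the Notch inhibitor DAPT added. Cho-Orgs were grown from EpCAM-positive cells in a cholangiocyte medium without DAPT or dexamethasone and were sequenced at P0, P5 and P10. Both media held N-acetylcysteine. Each of these 7 groups had 3 bulk poly(A) libraries, and Smart-Seq was run on 1 library for each shape of P0 Hep-Orgs, grown in Hep-Med before DAPT and dexamethasone were added to it: grape-like, round-like and intermediate. Replicates are described as mice in one place and as independent cultures in another, so the p-values measure the spread between libraries, whichever of these they are. The libraries are bulk cultures, in which fewer cells of a type and less RNA per cell cannot be told apart.

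Fragments on genes numbered 14068906 to 27160365 per library of the hepatocyte table and, by estimate, 37470000 to 39930000 and 40030000 to 40380000 in the cholangiocyte and Smart-Seq tables. In the libraries labelled Pri-Hep, 12 hepatocyte markers summed to 601 to 638 FPKM and 10 cholangiocyte markers to 3917 to 4011 FPKM, which goes against the label and lies close to the 615.5 to 665.3 and 3864 to 4082 FPKM of the Hep-Orgs in the same table. Levels are in FPKM, fragments scaled to gene length and library depth, so that genes can be compared with each other.

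Amino acids need carriers to cross membranes, and the amino acids moved by these families overlap in part. Slc7 light chains exchange amino acids and reach the plasma membrane with a heavy chain of the Slc3 family, Slc1 and Slc38 carriers concentrate acidic and neutral amino acids with the sodium gradient, and Slc36 carriers use protons. The Slc6 family carries osmolytes and creatine besides neurotransmitters, and some of its members carry amino acids. The liver is known for taking up alanine and glutamine for gluconeogenesis, the urea cycle and glutathione.

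A gene was tested where it had at least 1 FPKM in at least 3 libraries of a table. By this filter 29 members of the hepatocyte table and 31 of the cholangiocyte table were tested, and 33 members reached 1 FPKM in at least 1 Smart-Seq library. A further 10, 8 and 1 members were at 0 in every library of the respective table, and the remaining 28, 23 and 17 were detected but did not pass. Among those that passed in no table were the neuronal glycine carrier Slc6a5, the intestinal and lung carrier Slc6a14 and the kidney light chain Slc7a13. The taurine carrier Slc6a6, the glutamine exchanger Slc1a5 and the sodium-coupled neutral carrier Slc38a2 were the 3 highest members by mean level in the libraries labelled Pri-Hep, in Hep-Orgs P1, Hep-Orgs P10 and all 3 Cho-Orgs groups. In each Smart-Seq library Slc6a6 was the highest member.

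**Figure D1:**
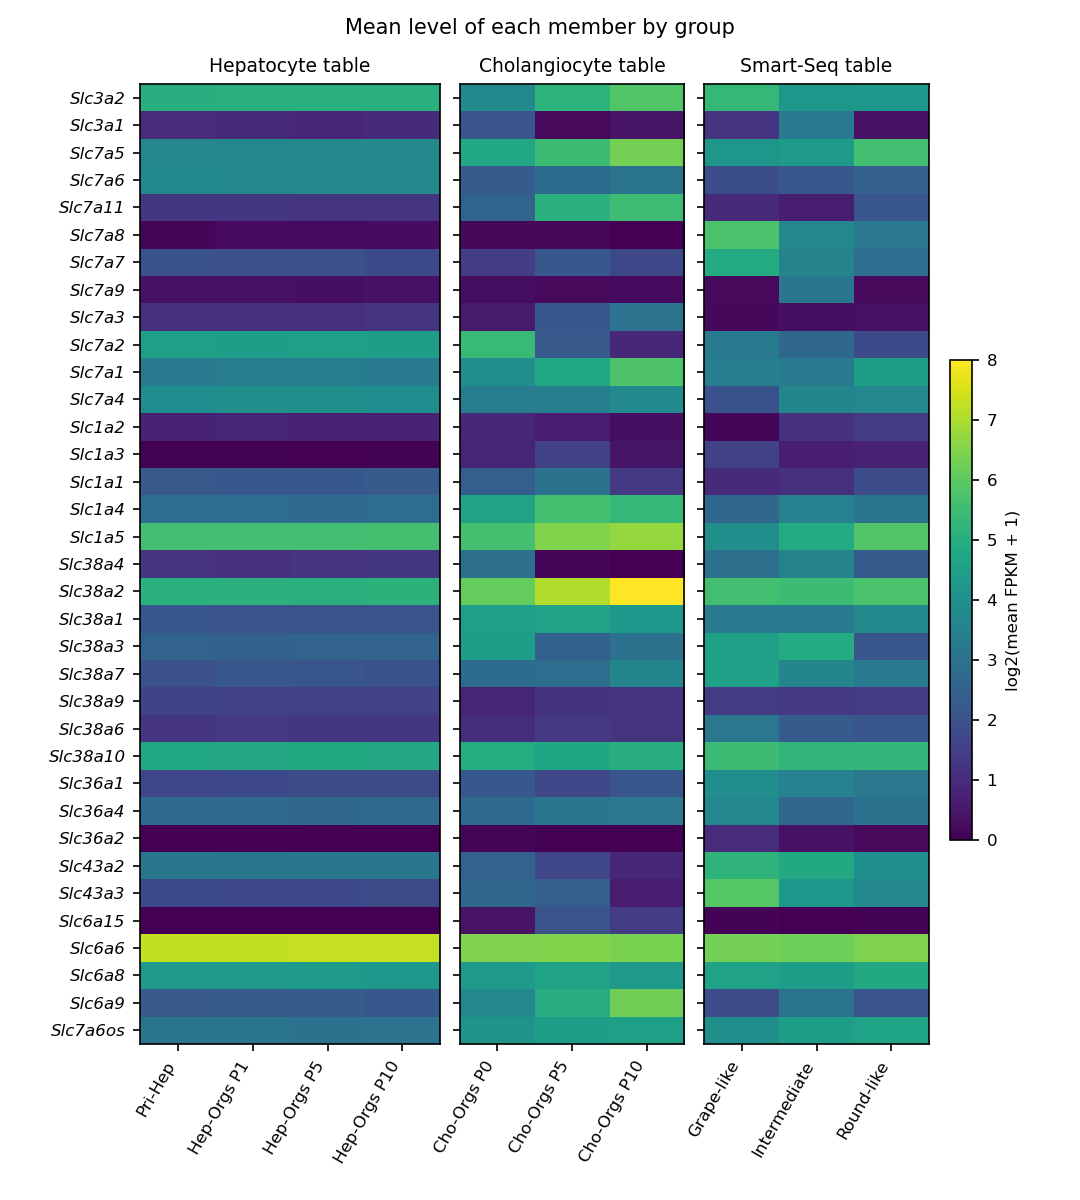
Mean level of the 35 members that passed the filter on low values in at least 1 table, as log2(mean FPKM + 1), with groups in columns and genes in rows. The 4 columns of the hepatocyte table look alike for every gene, whereas Slc38a2, Slc7a11, Slc6a9 and Slc7a2 change colour from Cho-Orgs P0 to P10. The tables were normalized separately.

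The first comparison asked how the carriers changed as cholangiocyte organoids were passaged. In the Cho-Orgs, 26 of 31 tested members changed between P0 and P5 (19 higher and 7 lower), and so did 56.6% of all tested genes (34% higher and 22.6% lower; limma, Benjamini-Hochberg adjusted p under 0.05). Between P0 and P10, 26 members changed (18 higher and 8 lower) against 72.3% of all genes (41% and 31.3%), and between P5 and P10, 23 changed (13 higher and 10 lower) against 61.5% (31% and 30.5%). With a log2 fold change of at least 1 as well, 10 members passed at P5 against P0 (6 higher and 4 lower), where 7.67% of all genes did (3.24% higher and 4.43% lower). By this measure 14 members passed at P10 against P0 (8 higher and 6 lower) and 15.8% of all genes (6.23% and 9.61%), and 5 members passed at P10 against P5 (1 higher and 4 lower) and 8.2% of all genes (2.03% and 6.18%). The median log2 fold change of the members was 0.34, 0.40 and 0.09, and that of all tested genes was 0.06, 0.07 and 0.01. In the order P5 against P0, P10 against P0 and P10 against P5, groups did not overlap for 25, 25 and 26 members. The same held for 61.5%, 75.1% and 74.2% of all tested genes, so a lack of overlap was common among all genes. When median-ratio size factors were used for P0 against P5, the members split into 18 higher and 7 lower, while the share of higher genes among all called genes went from 60% to 47.2%. Summed over all members, a library held 502 to 523 FPKM at P0, 663 to 714 FPKM at P5 and 949 to 968 FPKM at P10.

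The heavy chains moved in opposite directions. Slc3a2 (ENSMUSG00000010095, chromosome 19 of GRCm38, 8706882 to 8723369, minus strand), the widely used heavy chain also called CD98, had 15.3, 13.5 and 10.8 FPKM in the P0 libraries, 36.9, 33.9 and 34.8 FPKM at P5 and 55.9, 55.2 and 56.3 FPKM at P10. The 3 groups did not overlap, and each later passage was higher. Slc3a2 rose by 2.02 ± 0.10 (log2 fold change ± SE on the log2(FPKM + 1) scale, as throughout) between P0 and P10 (limma adjusted p = 8.708e-08). Slc3a1 (chromosome 17, 85028347 to 85064243, plus strand), the heavy chain of the cystine and dibasic amino acid carrier of kidney and gut, had 3.37, 2.48 and 4.07 FPKM at P0, 0.184, 0.137 and 0.147 FPKM at P5 and 0.319, 0.521 and 0.255 FPKM at P10. All P0 libraries lay above all later ones. Slc3a1 fell by 1.65 ± 0.13 between P0 and P10 (limma adjusted p = 2.182e-06). Its light chain Slc7a9 was at or under 0.458 FPKM in every Cho-Orgs library and was not tested.

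All 4 tested light chains of Slc3a2 were higher at P5 and at P10 than at P0. Slc7a11 (ENSMUSG00000027737, chromosome 3, 49892526 to 50443614, minus strand), which imports cystine in exchange for glutamate, had 7.46, 4.23 and 3.07 FPKM at P0, 33.0, 34.8 and 33.2 FPKM at P5 and 45.2, 45.1 and 44.5 FPKM at P10. Every P5 library was above every P0 library, and every P10 library was above every P5 library. On this scale Slc7a11 had the largest rise of the tested members between P0 and P10, 3.02 ± 0.20 (limma adjusted p = 6.866e-07), and 2.62 ± 0.20 of it was present at P5. The step from P5 to P10, 0.41 ± 0.20, did not pass when the 3 passages were fitted together (limma adjusted p = 0.111) and passed when P5 and P10 were fitted alone (limma adjusted p = 1.4e-05).

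Slc7a5 (ENSMUSG00000040010, chromosome 8, 121881150 to 121907694, minus strand), the exchanger for leucine and other large neutral amino acids, had 34.6, 25.8 and 19.5 FPKM at P0, 49.3, 37.9 and 45.5 FPKM at P5 and 83.8, 79.4 and 77.2 FPKM at P10. The P0 libraries were the most spread but lay below all P5 libraries, and all P10 libraries lay above both. Slc7a5 rose by 1.59 ± 0.17 between P0 and P10 (limma adjusted p = 1.742e-05). Slc7a6, an exchanger of cationic for neutral amino acids, had 4.37, 3.34 and 4.13 FPKM at P0, 5.79, 5.87 and 6.44 FPKM at P5 and 7.32, 7.28 and 7.51 FPKM at P10, without overlap. Slc7a7, of the same transport type, had a mean of 1.75 ± 0.29 (SD, n = 3) at P0, 3.57 ± 0.27 at P5 and 2.32 ± 0.35 FPKM at P10, and was thus highest at P5. Its difference between P0 and P10, 0.27 ± 0.10 (limma adjusted p = 0.0324), did not pass without P0 library 3, P10 library 1 or P10 library 2 (limma adjusted p = 0.1175, 0.0853 and 0.1245). The P5 to P10 step of Slc7a6, 0.25 ± 0.08 (limma adjusted p = 0.0209), did not pass without P5 library 1 or 2 or P10 library 1 or 3 (limma adjusted p = 0.051 to 0.0689). Of the other partners of Slc3a2, the large neutral amino acid exchanger Slc7a8 was at or under 0.168 FPKM in all Cho-Orgs libraries and Slc7a10 was at 0. Summed per library, the light chains held 2.62 to 3.17 FPKM for each FPKM of Slc3a2 at P0, 2.42 to 2.55 at P5 and 2.33 to 2.48 at P10.

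Promoter sequence is shown for members with a log2 rise of at least 1 between P0 and P10 that hold, outside annotated exons, the letters TGATGNAA of the CEBP-ATF response element read by ATF4 or the core TGACNNNGC of the antioxidant response element read by Nrf2. Windows of 250 bases before each RefSeq start (GRCm38.p6) were found for 49 of the 67 members, 70 windows in all, among them 5 of the 8 members that rose so far and 3 of the 6 that fell so far, and both strands were searched. TGATGNAA was in 4 of these 70 windows (5.71%) and in 3.45% of all 32851 windows, and TGACNNNGC was in 10 (14.3%) against 10.2%. Other motifs searched were a variant antioxidant response core, TGACTCA and CACGTG. The variant leaves the first C of TGACNNNGC open, adds an A at its end and can overlap TGACNNNGC. It was in 8.57% of member windows and 10.8% of all, TGACTCA in 8.57% and 4.46%, and CACGTG in 12.9% and 6.02%. The Slc7a11 window (chr3:50443615-50443863, minus strand) held TGATGNAA in both orientations, at 66 to 59 and at 47 to 40 bases before the start. The windows of Slc7a1 (chr5:148399905-148400154, minus strand) and Slc38a2 (chr15:96699731-96699978, minus strand) held TGACNNNGC at 11 to 3 and at 27 to 19 bases before the start. The Slc7a11 window did not hold TGACNNNGC. Its match to the variant core shares bases with the TGATGNAA site at 47 to 40 and is not a separate element. TGACTCA was in the Slc7a1 window and in 1 of the 6 windows of the members that fell, that of Slc3a1. None of those 6 windows held TGATGNAA or TGACNNNGC, and 1 and 4 of the 8 windows of the members that rose did. With shares of 3.45% and 10.2% over all windows, 6 windows are too few to read an absence. Both windows of Slc6a9 that held TGACNNNGC held it within an annotated exon and are not printed. In the 3 sequences below, written 5′ to 3′ along the gene and cut before the first annotated exon base, capitals mark these motifs. A match says only that the letters are there.
Slc7a11: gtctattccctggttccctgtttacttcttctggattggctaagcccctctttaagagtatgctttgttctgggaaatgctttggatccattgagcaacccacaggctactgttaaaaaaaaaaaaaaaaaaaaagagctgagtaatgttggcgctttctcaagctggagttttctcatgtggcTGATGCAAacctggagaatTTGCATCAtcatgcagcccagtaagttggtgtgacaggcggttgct
Slc7a1: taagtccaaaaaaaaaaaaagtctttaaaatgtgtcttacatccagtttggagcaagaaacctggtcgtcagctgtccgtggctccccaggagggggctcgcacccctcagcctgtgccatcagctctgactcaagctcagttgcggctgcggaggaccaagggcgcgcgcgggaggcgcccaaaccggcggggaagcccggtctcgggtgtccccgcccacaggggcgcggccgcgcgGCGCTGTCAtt
Slc38a2: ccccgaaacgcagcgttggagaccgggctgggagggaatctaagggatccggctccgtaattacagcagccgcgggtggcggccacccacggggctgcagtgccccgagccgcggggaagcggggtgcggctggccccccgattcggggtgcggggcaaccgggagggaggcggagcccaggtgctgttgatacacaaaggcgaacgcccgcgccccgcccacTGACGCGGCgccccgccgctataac

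The cationic amino acid carriers exchanged places. Slc7a2 (ENSMUSG00000031596, chromosome 8, 40862396 to 40922308, plus strand), the arginine and lysine carrier typical of liver, had 30.0, 51.1 and 42.5 FPKM at P0, 3.68, 3.79 and 3.61 FPKM at P5 and 0.937, 0.8797 and 0.927 FPKM at P10. No libraries of different passages overlapped, and each later passage was lower. Slc7a2 fell by 4.43 ± 0.15 between P0 and P10 (limma adjusted p = 8.245e-09), the largest fall of the tested members on this scale. Slc7a1 (ENSMUSG00000041313, chromosome 5, 148327410 to 148399904, minus strand), the arginine and lysine carrier of most other cells, had 17.4, 11.2 and 13.5 FPKM at P0, 26.5, 26.4 and 27.99 FPKM at P5 and 54.9, 53.2 and 52.1 FPKM at P10. It was higher at each later passage without overlap and rose by 1.87 ± 0.12 between P0 and P10 (limma adjusted p = 4.904e-07). Slc7a3 (chromosome X, 101079210 to 101086020, minus strand), a related carrier best known from brain, had 0.306, 0.858 and 0.271 FPKM at P0, 4.19, 3.03 and 3.43 FPKM at P5 and 7.57, 6.71 and 7.37 FPKM at P10. Again no groups overlapped, and Slc7a3 rose by 2.50 ± 0.15 (limma adjusted p = 2.547e-07). Of the summed FPKM of these 3 carriers, Slc7a2 made up 62.8% to 80.9% per library at P0, 10.3% to 11.4% at P5 and 1.45% to 1.53% at P10. The share of Slc7a1 was 17.7% to 36.5%, 77.1% to 79.9% and 86.3% to 87.5% in the same order.

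The neutral exchangers of the Slc1 family rose and the glutamate carriers of the same family had their highest means at P5. Slc1a5 (ENSMUSG00000001918, chromosome 7, 16781340 to 16798274, plus strand), which exchanges glutamine for other neutral amino acids, had 52.1, 46.1 and 50.0 FPKM at P0, 88.7, 86.5 and 88.4 FPKM at P5 and 107.6, 106.0 and 106.2 FPKM at P10. Slc1a4, the exchanger for alanine, serine and cysteine, had 23.1, 22.1 and 25.2 FPKM at P0, 45.4, 51.6 and 51.3 FPKM at P5 and 40.9, 38.5 and 38.1 FPKM at P10. Neither gene had overlapping groups, and Slc1a5 was highest at P10 but Slc1a4 at P5. Between P0 and P10 Slc1a5 rose by 1.10 ± 0.05 (limma adjusted p = 5.368e-08) and Slc1a4 by 0.72 ± 0.07 (limma adjusted p = 6.443e-06). Slc1a1, a glutamate and cysteine carrier, had 2.74, 6.48 and 3.397 FPKM at P0, 7.35, 7.47 and 6.58 FPKM at P5 and 1.60, 1.72 and 1.37 FPKM at P10. Slc1a3, a glutamate carrier known from glia, had 1.72, 0.308 and 0.257 FPKM at P0, 2.07, 1.65 and 1.99 FPKM at P5 and 0.319, 0.380 and 0.392 FPKM at P10. In both genes 1 of the P0 libraries stood far above the other two, library 2 for Slc1a1 and library 1 for Slc1a3, and for Slc1a3 that library overlapped the P5 group. From P5 to P10 Slc1a1 fell by 1.67 ± 0.21 (limma adjusted p = 9.216e-05) and Slc1a3 by 1.09 ± 0.25 (limma adjusted p = 0.003534). The rise before it was less firm: that of Slc1a1, 0.71 ± 0.21 (limma adjusted p = 0.0152), did not pass without P0 library 3 (limma adjusted p = 0.0532), and that of Slc1a3, 0.82 ± 0.25 (limma adjusted p = 0.0174), did not pass without P0 library 2 or 3 or P5 library 1 or 3 (limma adjusted p = 0.0512, 0.0646, 0.0549 and 0.05045).

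The system A carriers, which take up alanine, serine and glutamine with sodium, lie near each other on chromosome 15 and moved apart. Slc38a2 (ENSMUSG00000022462, 96687392 to 96699730, minus strand), the member known for rising when cells lack amino acids, had 70.1, 70.6 and 64.9 FPKM at P0, 137.3, 124.0 and 139.2 FPKM at P5 and 257.1, 249.9 and 256.5 FPKM at P10. It was the highest member at P5 and P10, its groups did not overlap, and it rose by 1.88 ± 0.06 between P0 and P10 (limma adjusted p = 4.427e-09). Slc38a4 (ENSMUSG00000022464, 96994820 to 97055956, minus strand), the liver-enriched system A carrier, lies 295090 bases beyond it and had 6.79, 7.56 and 5.79 FPKM at P0, 0.0602, 0.119 and 0.0297 FPKM at P5 and 0.00597, 0 and 0 FPKM at P10. All P0 libraries lay far above the others. At P10 every library was under the floor of 3 fragments, about 0.0188 FPKM, so Slc38a4 was at least 357-fold lower at P10 than at P0 (limma adjusted p = 4.935e-09). Slc38a1 (96571418 to 96642913, minus strand) ends 44479 bases before Slc38a2 and had 18.9, 22.4 and 23.6 FPKM at P0, 23.1, 22.2 and 25.5 FPKM at P5 and 18.5, 17.4 and 18.7 FPKM at P10. Its groups overlapped at P0 and P5, and no P10 library was above the lowest P0 library. Its difference between P0 and P10, -0.23 ± 0.08 (limma adjusted p = 0.0286), did not pass without P0 library 2 or 3 or P10 library 1 or 2 (limma adjusted p = 0.0563 to 0.1046).

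Slc38a3 (chromosome 9, 107650634 to 107669530, minus strand), the glutamine carrier of hepatocytes and kidney, had 20.1, 20.8 and 23.1 FPKM at P0, 4.17, 4.97 and 4.55 FPKM at P5 and 7.26, 6.66 and 7.18 FPKM at P10. It was lowest at P5 and partly regained its level at P10, with no overlap between the groups. Slc38a3 fell by 2.01 ± 0.07 from P0 to P5 (limma adjusted p = 3.588e-08) and rose by 0.53 ± 0.07 from P5 to P10 (limma adjusted p = 0.0001568). The other system N carrier, Slc38a5, was at or under 0.0559 FPKM. Of 4 tested members with a lysosomal or less settled place, Slc38a7, a lysosomal glutamine and asparagine carrier, rose from 6.16 ± 0.47 (SD, n = 3) at P0 and 6.46 ± 0.27 at P5 to 11.5 ± 0.3 FPKM at P10 (limma adjusted p = 1.427e-06 for P0 against P10). Slc38a9, the arginine-sensing carrier of lysosomes, rose from 0.786 ± 0.031 at P0 to 1.26 ± 0.06 FPKM at P5 and was 1.36 ± 0.07 FPKM at P10. Slc38a10, an abundant member whose cargo is less settled, had 32.0, 29.5 and 29.1 FPKM at P0, 26.8, 23.2 and 26.9 FPKM at P5 and 32.1, 32.0 and 30.9 FPKM at P10, lowest at P5. Slc38a6 had means of 1.07 to 1.49 FPKM, and its difference between P0 and P10, 0.17 ± 0.07 (limma adjusted p = 0.0468), did not pass without P0 library 1 or 3 or any P10 library (limma adjusted p = 0.0597 to 0.1483). The proton-coupled Slc36a4 rose from 5.64 ± 0.37 to 7.89 ± 0.78 FPKM at P5, and Slc36a1 went from 3.57 ± 0.14 to 2.22 ± 0.32 FPKM at P5 and back to 3.39 ± 0.16 FPKM at P10.

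**Figure D2:**
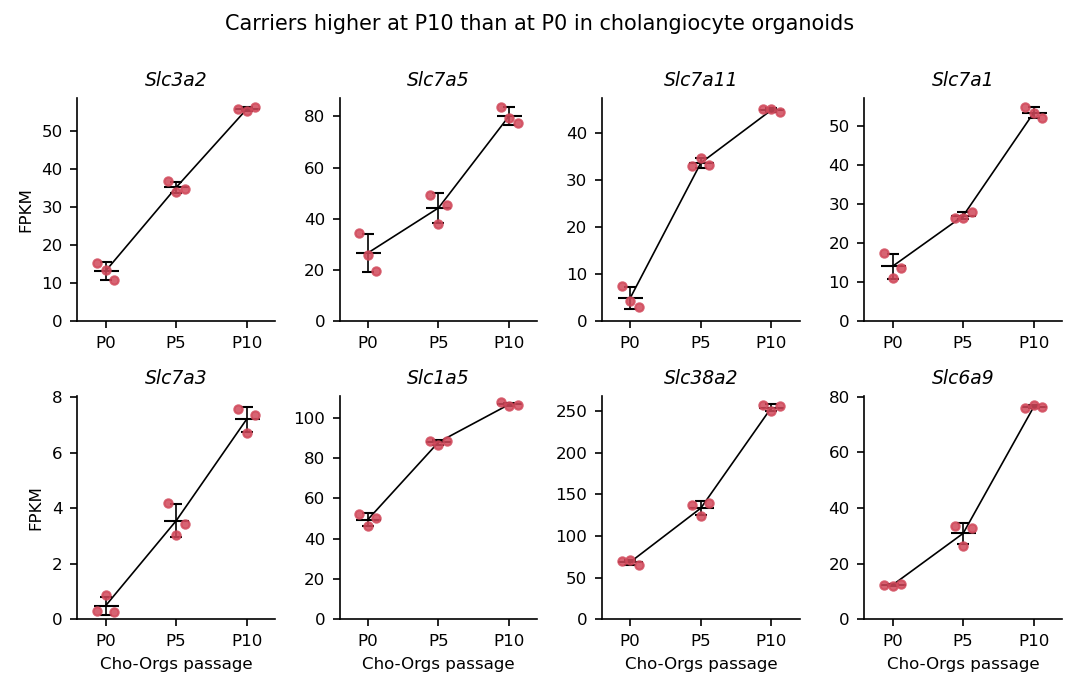
FPKM of the 8 members with a log2 rise of at least 1 between P0 and P10 in Cho-Orgs, by passage. Points are the 3 libraries of each passage, the bars give the mean and SD, and lines join the means. In each panel the 3 P10 libraries lie above the 3 P0 libraries, for example with 107 against 49.4 FPKM on average in Slc1a5 and 44.9 against 4.92 FPKM in Slc7a11.

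The facilitative Slc43 carriers both fell. Slc43a2 (chromosome 11, 75531694 to 75577575, plus strand), which lets large neutral amino acids through without an ion gradient, had 4.49, 5.69 and 3.85 FPKM at P0, 2.401, 2.42 and 2.05 FPKM at P5 and 1.03, 0.857 and 0.854 FPKM at P10. Slc43a3 (chromosome 2, 84936579 to 84958509, plus strand), a family member known to carry purine bases and not amino acids, had 3.82, 7.37 and 4.45 FPKM at P0, 4.12, 4.02 and 4.76 FPKM at P5 and 0.677, 0.594 and 0.412 FPKM at P10. The groups of Slc43a2 were apart at every passage, while those of Slc43a3 overlapped at P0 and P5 and only P10 was apart. Between P0 and P10 Slc43a2 fell by 1.56 ± 0.11 (limma adjusted p = 1.023e-06) and Slc43a3 by 1.96 ± 0.18 (limma adjusted p = 4.974e-06). Slc43a1, also on chromosome 2, did not pass the filter and had 0.233, 0.504 and 0.244 FPKM at P0 against 0, 0 and 0.0138 FPKM at P10.

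**Figure D3:**
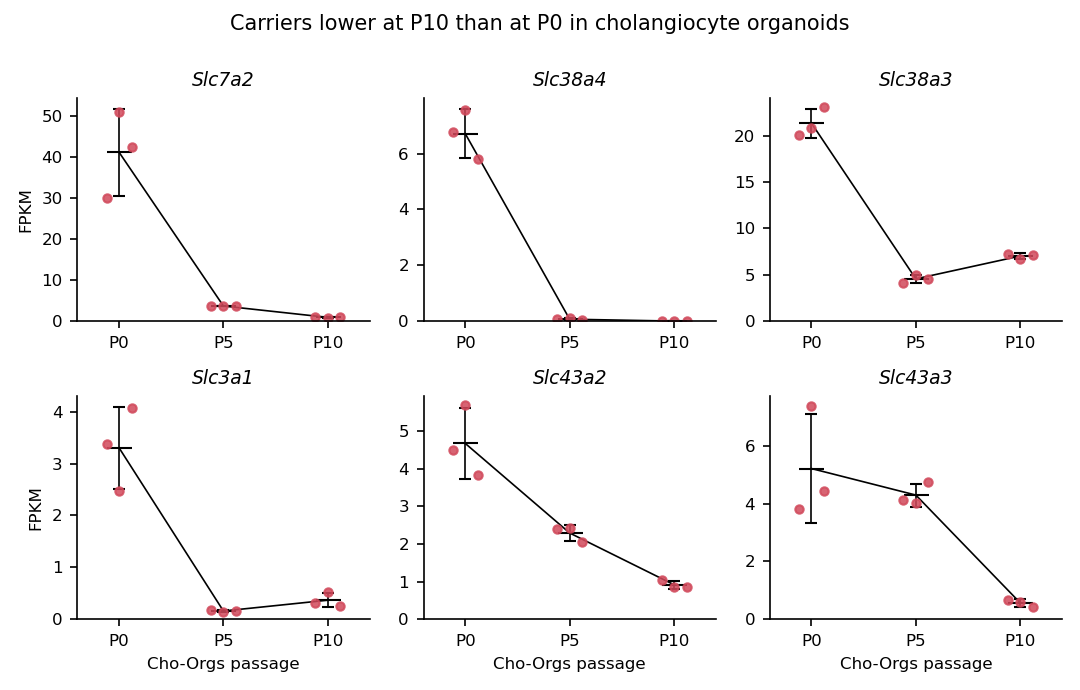
FPKM of the 6 members with a log2 fall of at least 1 between P0 and P10 in Cho-Orgs, by passage. Points are the 3 libraries of each passage, the bars give the mean and SD, and lines join the means. Slc7a2, Slc38a4, Slc38a3 and Slc3a1 lost most of their level by P5, whereas Slc43a3 had 5.22 FPKM on average at P0, 4.30 at P5 and 0.561 at P10.

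In the Slc6 family the glycine carrier rose and the taurine carrier was called in no comparison. Slc6a9 (ENSMUSG00000028542, chromosome 4, 117834506 to 117875198, plus strand), which takes up glycine, had 12.1, 11.9 and 12.8 FPKM at P0, 33.3, 26.4 and 32.8 FPKM at P5 and 75.9, 76.9 and 76.3 FPKM at P10. It was more than 2-fold higher at each step without overlap and rose by 2.55 ± 0.08 between P0 and P10 (limma adjusted p = 5.218e-09). Slc6a15, a carrier of branched-chain amino acids and proline, had 0.476, 0.226 and 0.316 FPKM at P0, 3.27, 2.80 and 3.35 FPKM at P5 and 1.72, 1.66 and 1.49 FPKM at P10, and was thus highest at P5. It rose by 1.63 ± 0.09 from P0 to P5 (limma adjusted p = 5.191e-07) and fell by 0.66 ± 0.09 from P5 to P10 (limma adjusted p = 0.0001638). Slc6a6 (chromosome 6, 91684053 to 91759066, plus strand), the taurine carrier, had 80.9, 89.6 and 90.8 FPKM at P0, 88.8, 82.3 and 94.3 FPKM at P5 and 85.2, 82.4 and 83.7 FPKM at P10. Its groups overlapped throughout, and it was the only tested member called in none of the 3 comparisons, with log2 fold changes of 0.02, -0.05 and -0.08 (SE 0.06 each). The creatine carrier Slc6a8 had 15.6, 22.3 and 19.6 FPKM at P0, 23.9, 24.0 and 22.9 FPKM at P5 and 18.02, 19.9 and 19.5 FPKM at P10. All P5 libraries were above the others, and its calls between P0 and P5 (limma adjusted p = 0.0327) and between P5 and P10 (limma adjusted p = 0.0359) did not pass without P0 library 1 or 3 or any P5 library, and without any P5 or P10 library, respectively (limma adjusted p = 0.05202 to 0.1146). Slc6a13, a carrier of taurine and GABA found in liver, did not pass the filter; it had 0.446, 0.342 and 0.332 FPKM at P0 and was at 0 in all later libraries, so it was at least 13.5-fold lower at P10. The opposite-strand gene Slc7a6os, which encodes a nuclear import factor of RNA polymerase II and no carrier, had means of 16.6, 21.1 and 22.4 FPKM. Slc7a4, a relative of the cationic carriers, had 9.53, 9.43 and 8.83 FPKM at P0, 9.52, 9.64 and 9.96 FPKM at P5 and 13.3, 12.6 and 12.5 FPKM at P10, and only P10 was apart.

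**Figure D4:**
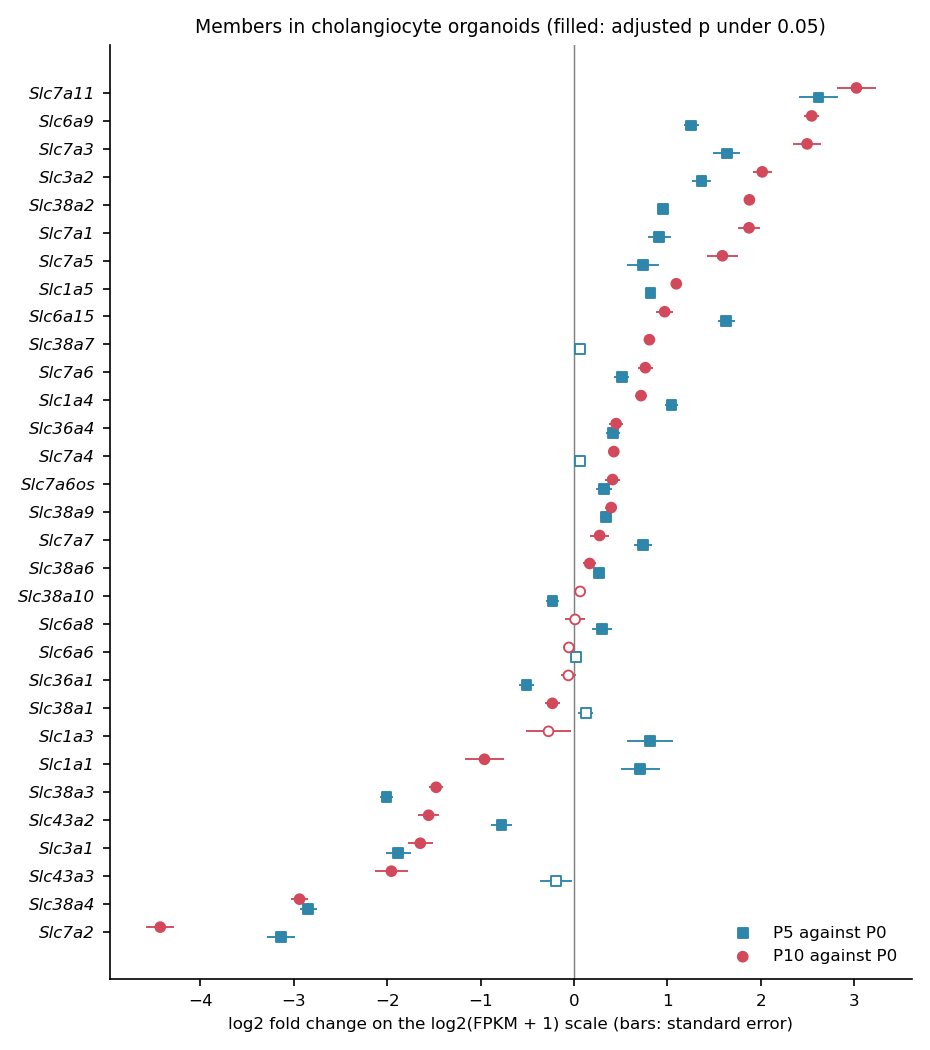
Log2 fold change of the 31 tested members in Cho-Orgs, P5 against P0 (squares) and P10 against P0 (circles), on the log2(FPKM + 1) scale. Bars are standard errors, and filled symbols passed the adjusted threshold of 0.05 (limma). Values run from -4.43 for Slc7a2 to 3.02 for Slc7a11 at P10, and Slc6a6 is near 0 at both passages.

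Read by their path over the 3 passages, 8 members were called higher at both steps (Slc1a5, Slc3a2, Slc6a9, Slc7a1, Slc7a3, Slc7a5, Slc7a6 and Slc38a2) and 2 lower at both (Slc7a2 and Slc43a2). A further 6 were called higher at P5 and lower afterwards (Slc1a1, Slc1a3, Slc1a4, Slc6a8, Slc6a15 and Slc7a7), and 3 lower at P5 and higher afterwards (Slc36a1, Slc38a3 and Slc38a10). Of all tested genes, 56.6% were called from P0 to P5 and 61.5% from P5 to P10. The share of all genes on each path was not computed, so these counts cannot be set against it. Sums of cell type markers also differed between the passages, though not all in the same direction. The 12 hepatocyte markers summed to 6006 to 7164 FPKM in the P0 libraries, 209.6 to 246 FPKM at P5 and 87.5 to 93.5 FPKM at P10, with Cps1 at 0 at P5 and Cps1, Cyp3a11 and Serpina1c at 0 at P10. The 8 stellate cell markers summed to 60.8 to 75.7, 7.54 to 8.37 and 0.174 to 0.239 FPKM, and at P0 and P5 nearly all of this was Reln, with means of 69.2 and 7.36 FPKM. The 8 endothelial markers summed to 0.920 to 1.88, 9.39 to 16.4 and 0.847 to 1.23 FPKM, and most of this was Tek, with means of 0.842, 13.2 and 0.879 FPKM. The 10 macrophage markers summed to 222 to 348, 197 to 199 and 258 to 264 FPKM, with Clec4f and Vsig4 at 0 in every group. Only 3, 2 and 2 of these 10 had a mean of at least 1 FPKM at P0, P5 and P10. At P5 and at P10, 6 of the 10 were at 0, among them Lyz2, Marco and Ptprc. The 10 cholangiocyte markers summed to 5162 to 6574, 3560 to 3695 and 3411 to 3441 FPKM, and the 10 proliferation markers to 378 to 557, 214 to 222 and 87.0 to 94.1 FPKM. The part of such cells, where present, and of proliferation in the carrier levels was not tested.

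Other genes of amino acid handling were read from lists of known function. Amino acid response genes are targets or partners of the factor ATF4, which is made when cells lack amino acids. At P5, 17 of these 20 genes were higher than at P0 and none lower. At P10, 17 were higher than at P0 and Ddit4 was lower. The median log2 fold change of the 20 genes was 0.66 at P5 and 1.52 at P10. Of all tested genes, 34% and 41% were higher and 22.6% and 31.3% lower. Atf4 itself had a mean of 97.1 FPKM at P0, 190 at P5 and 363 at P10. The steepest of the list between P0 and P10 were Aldh1l2, from 3.89 to 48.0 FPKM, Chac1, which degrades glutathione, from 5.67 to 62.9 FPKM, Trib3, from 10.8 to 80.2 FPKM, Atf5, from 27.3 to 152 FPKM, and Nupr1, from 297 to 1438 FPKM. Cytosolic aminoacyl-tRNA synthetases, which charge tRNA with amino acids, were higher at P10 than at P0 in 16 of 19 cases. Dars was lower, and Hars and Kars were not called. The median log2 fold change of the 19 synthetases was 1.09, and Cars, Iars, Tars, Lars and Gars changed most. The shares of all genes were the same 41% higher and 31.3% lower. Several of the synthetases are themselves known ATF4 targets, and so are Slc7a11, Slc7a5, Slc3a2, Slc6a9 and Slc38a2. The part of ATF4 in the levels of the carriers and synthetases was not tested.

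The second comparison asked whether carriers differed between the libraries labelled as primary hepatocytes and Hep-Orgs, and between passages of Hep-Orgs. None of the 29 tested members passed the adjusted threshold in any of the 6 comparisons among the libraries labelled Pri-Hep and Hep-Orgs P1, P5 and P10 (limma), and limma-voom on the recovered fragments also called none. At an unadjusted p under 0.05, 2, 6 and 3 members differed from the libraries labelled Pri-Hep at P1, P5 and P10, and 1, 4 and 4 in P5 against P1, P10 against P1 and P10 against P5, while 8.29%, 10.8%, 6.64%, 3.97%, 8.98% and 11.5% of all tested genes did. Of all 10986 tested genes, 0.0091%, 0.0091%, 0%, 0%, 0% and 0.0273% passed the adjusted threshold in the same comparisons. In the same order, groups did not overlap for 5, 8, 7, 2, 6 and 6 members. This was so for 13.5%, 15.1%, 10.9%, 10.3%, 16.3% and 17.1% of all tested genes. The log2 fold changes of the members ran from -0.21 to 0.17, and the smallest adjusted p of a member was 0.254 (limma), that of Slc36a1 in Hep-Orgs P5 against Pri-Hep.

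The highest members are given with their levels in all 12 libraries. Slc6a6 had 152.9, 154.5 and 152.8 FPKM in the libraries labelled Pri-Hep, 151.6, 153.7 and 156.1 FPKM at P1, 156.1, 155.3 and 155.2 FPKM at P5 and 154.2, 155.2 and 156.5 FPKM at P10. The P5 libraries lay just above those labelled Pri-Hep, and the other groups overlapped. Slc1a5 followed with 49.9, 44.6 and 47.5 FPKM in the libraries labelled Pri-Hep, 46.2, 47.8 and 48.3 FPKM at P1, 49.2, 45.3 and 48.8 FPKM at P5 and 50.0, 48.2 and 48.5 FPKM at P10. Slc38a2 had 32.8, 34.0 and 34.6 FPKM in the libraries labelled Pri-Hep, 33.6, 33.8 and 32.9 FPKM at P1, 33.9, 31.9 and 32.8 FPKM at P5 and 34.1, 34.4 and 33.6 FPKM at P10. The groups of both genes overlapped. Slc3a2 had 31.8, 29.8 and 32.3 FPKM in the libraries labelled Pri-Hep, 31.2, 34.2 and 32.4 FPKM at P1, 33.5, 32.4 and 33.0 FPKM at P5 and 33.2, 31.4 and 32.6 FPKM at P10, and the liver-type cationic carrier Slc7a2 had 21.8, 22.7 and 22.3 FPKM in the libraries labelled Pri-Hep, 21.7, 21.1 and 21.98 FPKM at P1, 21.7, 21.6 and 22.2 FPKM at P5 and 21.4, 21.1 and 22.1 FPKM at P10. Over all 12 libraries Slc38a10 lay between 24.7 and 28.7 FPKM, Slc6a8 between 18.1 and 20.3 FPKM, Slc7a4 between 13.5 and 15.2 FPKM, Slc7a6 between 11.7 and 13.7 FPKM and Slc7a5 between 11.8 and 13.0 FPKM. In this order Slc38a2 and Slc3a2 overlapped over the libraries, as Slc7a4 did with Slc7a6 and Slc7a6 with Slc7a5, whereas Slc6a6, Slc1a5, Slc38a10, Slc7a2 and Slc6a8 stood clear of their neighbours. Slc7a11 was at 1.16 to 1.56 FPKM. Here the light chains held 0.835 to 1.01 FPKM for each FPKM of Slc3a2, and Slc7a2 made up 66.8% to 69.6% of the 3 cationic carriers. Sums over all members were 443 to 458 FPKM per library.

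The smallest unadjusted p values in this table belonged to the lysosomal carriers Slc38a7 and Slc36a1. Slc38a7 had 2.71, 2.98 and 3.20 FPKM in the libraries labelled Pri-Hep, 3.55, 3.41 and 3.43 FPKM at P1, 3.56, 3.45 and 3.32 FPKM at P5 and 3.06, 3.08 and 3.07 FPKM at P10. Every P1 and P5 library was above every P10 library and every library labelled Pri-Hep. Slc36a1 had 2.15 to 2.29 FPKM in the libraries labelled Pri-Hep, 2.35 to 2.48 at P1, 2.59 to 2.64 at P5 and 2.42 to 2.66 FPKM at P10. Neither gene passed after adjustment (limma adjusted p = 0.3576 for Slc38a7 and 0.254 for Slc36a1 at their smallest unadjusted p). Marker sums moved as little, with 600.7 to 665.3 FPKM for hepatocyte markers and 3864 to 4082 FPKM for cholangiocyte markers over the 12 libraries.

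The third comparison asked how carriers differed between the organoid shapes at P0. With 1 library per shape there is no test, and values were compared as log2 ratios of FPKM + 1 with 95% confidence intervals that cover counting error only. Of 33 members, 15 differed by a log2 ratio of at least 1 between grape-like and round-like (9 higher and 6 lower in grape-like), as did 21.8% of all 12595 genes compared (12.9% and 8.82%). Between intermediate and round-like 8 members differed (5 higher and 3 lower) against 6.39% of genes (3.85% and 2.54%), and between grape-like and intermediate 9 differed (5 higher and 4 lower) against 16.9% (9.71% and 7.15%).

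Slc7a8, Slc7a7, Slc43a2 and Slc43a3 were highest in the grape-like library. Slc7a8, the large neutral amino acid exchanger, had 52.1 FPKM in the grape-like, 12.2 in the intermediate and 8.12 in the round-like library, so that grape-like exceeded round-like by a log2 ratio of 2.54 (2.47 to 2.61). Slc43a3 had 58.4, 18.1 and 12.2 FPKM (2.17, interval 2.10 to 2.23) and Slc7a7 29.1, 11.03 and 6.42 FPKM (2.02, interval 1.92 to 2.11). Slc3a2, the heavy chain of Slc7a8 and Slc7a7, was at 39.4, 17.97 and 18.2 FPKM, and Slc43a2 at 35.8, 27.9 and 15.3 FPKM. Slc38a7, Slc7a2 and Slc38a6 were higher in grape-like as well, with 22.7, 8.61 and 7.97 FPKM there and 8.64, 2.46 and 3.43 FPKM in round-like.

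Highest in the round-like library were Slc1a5, Slc7a5, Slc7a1, the cystine carrier Slc7a11, Slc7a4 and Slc1a2. Slc1a5 had 14.8, 29.3 and 55.3 FPKM in grape-like, intermediate and round-like organoids, which is a grape-like to round-like log2 ratio of -1.83 (-1.89 to -1.77). Slc7a5 had 17.9, 19.7 and 47.8 FPKM (-1.37, interval -1.43 to -1.31) and Slc7a1 had 9.69, 8.57 and 21 FPKM (-1.04, interval -1.09 to -0.99). Slc7a11 was low throughout, with 0.932, 0.597 and 3.46 FPKM. Slc7a4 was at 3.06 FPKM in grape-like and at 11.8 and 12.1 FPKM in the other two, and the glutamate carrier Slc1a2 at 0.0978, 1.18 and 1.61 FPKM.

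The intermediate library was set apart by the cystine and dibasic amino acid carrier. Slc3a1 had 1.28 FPKM in grape-like, 8.66 in intermediate and 0.302 in round-like organoids, and its light chain Slc7a9 (chromosome 7, 35448796 to 35466036, plus strand) had 0.164, 7.85 and 0.152 FPKM. Both subunits were thus highest in the same library, with log2 ratios of intermediate to round-like of 2.89 (2.74 to 3.05) for Slc3a1 and 2.94 (2.82 to 3.07) for Slc7a9. Slc38a3 had 22.5, 29.4 and 3.39 FPKM, Slc38a4 had 6.78, 10.9 and 3.97 FPKM and Slc6a9 had 2.71, 7.45 and 3.18 FPKM. Near the same level in all 3 libraries were Slc6a6 (78.9, 73.7 and 86.2 FPKM), Slc38a2 (47.0, 43.3 and 51.8 FPKM) and Slc38a10 (43.6, 37.1 and 38.1 FPKM).

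**Figure D5:**
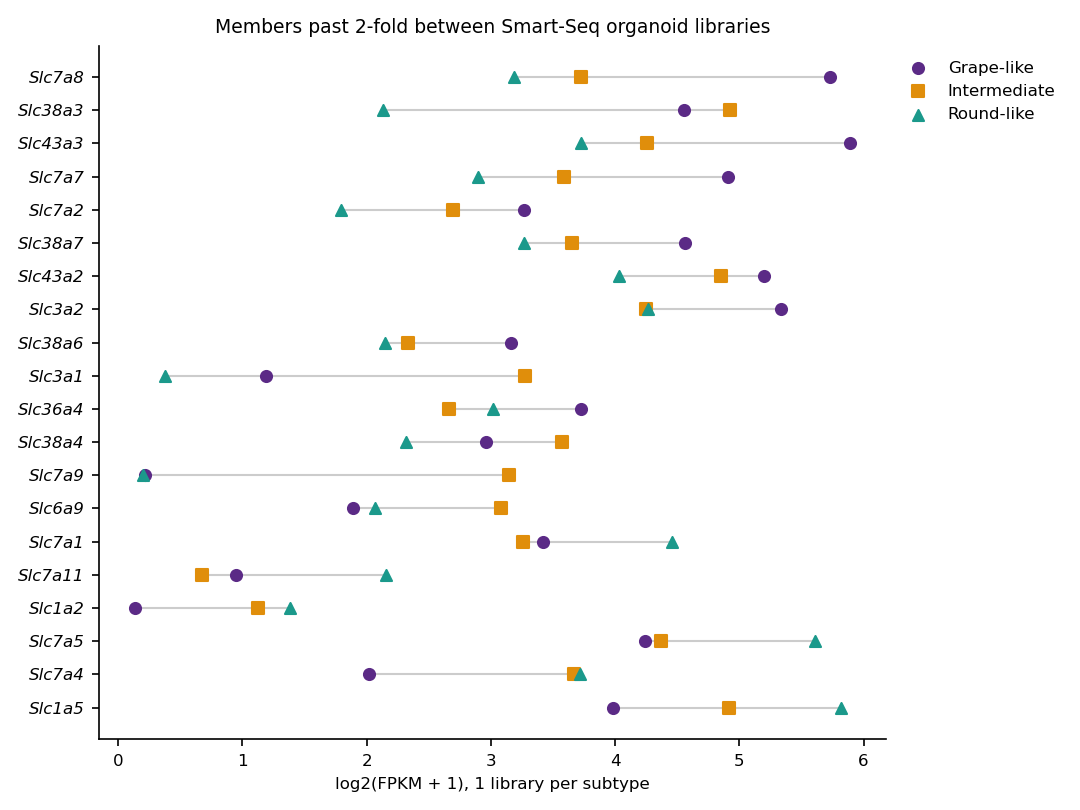
Level of the 20 members that differed by a log2 ratio of at least 1 between any of the 3 Smart-Seq libraries, as log2(FPKM + 1), ordered by the ratio of grape-like to round-like. Each symbol is 1 library. Slc7a8 is at 52.1 FPKM in grape-like and 8.12 FPKM in round-like organoids, and Slc3a1 and Slc7a9 are highest in the intermediate library.

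Markers of other cells differed between these libraries too. The 10 macrophage markers, all detected at 1 FPKM or more in each library, summed to 8971, 3170 and 1842 FPKM in grape-like, intermediate and round-like organoids, the order of Slc7a8, Slc43a3 and Slc7a7. The 8 stellate cell markers summed to 1362, 351.5 and 302.9 FPKM and the 8 endothelial markers to 133, 54.2 and 24.1 FPKM. Hepatocyte markers summed to 5749, 9436 and 1342 FPKM, the order of Slc38a3 and Slc38a4, and cholangiocyte markers to 879, 3468 and 2869 FPKM. Proliferation markers summed to 446, 379 and 693 FPKM, highest in round-like as Slc1a5, Slc7a5 and Slc7a1 were. The part of these cells and of proliferation in the differences between shapes was not tested.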

How the data were processed

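Poly(A) RNA of 21 bulk libraries, strand-specific and paired-end, and 3 Smart-Seq libraries was measured. The authors deposited FPKM in 3 tables, made with featureCounts 2.0.3 on mm10 per their processing notes, which also name edgeR 3.40.2. The aligner and the annotation are not given in the sources used here, and FPKM without between-library scaling can move when a few genes take more of the fragments. Depth came from the FPKM steps of single fragments in the hepatocyte table and is approximate in the others, so intervals and floors cover counting error only.

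Samples were grouped by their labels, and the tables were never fitted together. Genes with at least 1 FPKM in at least 3 libraries were fitted as log2(FPKM + 1) with limma 3.58.1 (R 4.3.3, eBayes with trend, two-sided), all groups of a table together, with Benjamini-Hochberg adjustment over all genes tested (10986 in the hepatocyte and 11593 in the cholangiocyte table) at 0.05. This test was used because the files hold FPKM, and limma-voom on the fragments recovered from the hepatocyte table (100% of values whole within 0.02) was an alternative. The FPKM + 1 scale understates changes of low genes. Smart-Seq libraries, 1 per shape, were compared by log2 ratios only, for genes of at least 1 FPKM in at least 1 library. Library values are given for members called with a log2 fold change of at least 1 in Cho-Orgs, among the 10 highest of a table, or past a log2 ratio of 2 in Smart-Seq with at least 5 FPKM, except that for part of the hepatocyte table a range over the 12 libraries stands in. For the other lists up to 5 genes of the largest change are named, and Slc7a6, Slc7a7 and others below these limits are named by role. The members and lists were chosen with earlier results of these data known. In the hepatocyte table the counts of replicates differed by more than sampling noise. Chi-square per degree of freedom was 1.91 to 3.16, median 2.21, within groups, and 1.77 to 4.60, median 2.52, between groups. Libraries of different groups were thus nearly as alike as replicates. Whether replicates were separate cultures or repeats of 1 culture cannot be told from these values. The Cho-Orgs libraries were not checked in this way. Promoter windows came from RefSeq on GRCm38.p6. The fitting was tested on simulated data in which every group had the same spread. The Cho-Orgs groups were unequally spread, which that simulation did not cover. Alternatives were another pseudocount, other filters, TPM, median-ratio size factors, no trend, a replicate block, fits of the compared groups alone and leaving out each library. Tables and figures were made in Python 3.11.15 with pandas 2.3.3, numpy 2.4.6 and matplotlib 3.10.9.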

Additional observations from a re-analysis of the deposited data

How the results depend on the processing

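No call of a member in Cho-Orgs changed direction under the alternatives run for it, and the directions of members not called, of members in the hepatocyte table and of Smart-Seq ratios were not followed. With only genes of a mean FPKM of at least 5, which left 19 members, 15, 16 and 15 members were called in Cho-Orgs for P5 against P0, P10 against P0 and P10 against P5 (limma). Under the filter of the report and with a log2 fold change of at least 1 as a further condition, 10, 14 and 5 of the 31 tested members were called. Leaving out 1 library at a time gave 23 to 25, 23 to 25 and 21 to 22 calls, and 0 in every hepatocyte comparison. The main fit called 26, 26 and 23 members in Cho-Orgs, with 56.6%, 72.3% and 61.5% of all tested genes. The shares of all genes called with the mean FPKM filter or with a library left out are not given here. A fold of at least 4 in place of 2 kept 4, 3 and 3 members in Smart-Seq for grape-like against round-like, intermediate against round-like and grape-like against intermediate. The share of all genes past a fold of 4 was not computed, so these counts cannot be set against it. The calls that other settings ended were those of Slc1a3, Slc6a8, Slc7a7, Slc38a1 and Slc38a6, with adjusted p between 0.0518 and 0.1357 (limma). Slc38a4 and Slc3a1 passed for P10 against P5 with a pseudocount of 0.1 (adjusted p = 0.0277 and 0.0166, limma), and Slc3a1 also when those groups were fitted alone (adjusted p = 0.02495). The cause was not tested.

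The labels number the replicates, but these numbers did not pair the libraries: deviations from the group means had a median correlation of -0.0063 over 9 same-numbered pairs of Cho-Orgs libraries (-0.0741 to 0.1193) and -0.0016 over 18 of the hepatocyte table (-0.0763 to 0.0548). With the replicate number as a block, 26, 25 and 23 members were called in the Cho-Orgs comparisons and 0 in those of the hepatocyte table. The call the block changed was that of Slc38a6 for P10 against P0 (adjusted p = 0.0683 with and 0.0468 without it, limma), and it changed no other call. Depth limits Slc38a4, Slc6a13 and Slc43a1, which were at or under the floor of 3 fragments in some groups.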

Other observations

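Other genes of amino acid handling were also read in the Cho-Orgs (limma, Benjamini-Hochberg adjusted p under 0.05). Of 14 tested amino acid and peptide carriers of other families, 4 were higher and 7 lower at P10 than at P0 (median -0.13), where 41% of all tested genes were higher and 31.3% lower, among them the aspartate and glutamate exchanger of mitochondria Slc25a13, which fell from a mean of 34.0 to 7.68 FPKM, and the ornithine carrier of the urea cycle Slc25a15, which fell from 12.3 to 3.57 FPKM. Of 7 glutathione genes 3 were higher and 3 lower (median 0.09), with Cth, which makes cysteine, rising from 9.33 to 45.4 FPKM and Ggt1, which degrades glutathione outside the cell, falling from 5.04 to 0.383 FPKM. Of 15 genes of lysosomal amino acid sensing 4 were higher and 5 lower (median 0.00), and Rragd fell most, from 21.96 to 2.93 FPKM.

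In the hepatocyte table none of the 73 tested genes of these lists, of the amino acid response list and of the aminoacyl-tRNA synthetases passed the adjusted threshold in any comparison (limma), and 1 to 10 of them had an unadjusted p under 0.05. Between the grape-like and the round-like Smart-Seq library, 1 of 20 amino acid response genes was higher and 3 were lower by a log2 ratio of at least 1 (median -0.24), and 2 of 19 synthetases were lower with none higher (median -0.43). In the same comparison 3 of 16 carriers of other families and 3 of 16 lysosomal sensing genes were higher, with 1 and 0 lower, and 1 of 8 glutathione genes was higher and 1 lower. Over all genes compared the median was -0.13, with 12.9% higher and 8.82% lower.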
